A study of Mus musculus with 39 samples.

Results

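The genes of muscle excitation-contraction coupling and of the calcium store were followed across the mouse gubernaculum, the cord of muscle and connective tissue that guides the testis into the scrotum. They were 10 genes chosen by name, with earlier results of these data known. Each was found once by Ensembl identifier in both deposited count tables, among the 21561 Ensembl genes that the tables share. They comprised the voltage sensor genes *Cacna1s* and *Cacng1*, the release channel genes *Ryr1* and *Ryr3*, the pump gene *Atp2a1*, the store protein genes *Casq1*, *Casq2* and *Hrc*, and the junction genes *Trdn* and *Jph1*. RNA-seq had been performed on 39 libraries in 13 groups of 3, of which 15 libraries in 5 groups were gubernaculum. These 5 groups were WT at postnatal day 8 (P8) and P23, INSL3-KI at P8 and P23, and INSL3-KO at P8. All mice were male and on the C57BL/6J background, and none had been treated. INSL3-KI mice carry the minke whale *INSL3* cDNA at the mouse locus, from targeted embryonic stem cell clones, with the neomycin cassette removed by Cre mating, and were homozygous. INSL3-KO mice are the knockout of the gene, and their gubernaculum at P23 was not analysed here. The other 8 groups were testis, and 4 of them (P8 WT, INSL3-KI and INSL3-KO, and P23 INSL3-KI) were compared with the gubernaculum of the same genotype and age. Each library is labelled as a biological replicate, but the labels do not say whether tissue of several animals was pooled.

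In a skeletal muscle fibre, the action potential runs along the T-tubules, where the calcium channel encoded by *Cacna1s* senses the voltage and opens the ryanodine receptor of the sarcoplasmic reticulum by direct contact. Calcium leaves the store, the fibre contracts, and the SERCA pump returns calcium to the store, where calsequestrin binds it. Triadin and junctophilin hold the store membrane against the T-tubule. Skeletal fibres use *Ryr1*, *Cacna1s*, *Atp2a1* and *Casq1*, cardiac and smooth muscle rely on other members of the same families, and *Casq2* and *Ryr3* are known in immature skeletal muscle. In bulk tissue, fewer fibres and less RNA per fibre cannot be told apart.

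The promoters of 6 of the 10 genes were held in the RefSeq table used here (GRCm38.p6): *Cacna1s*, *Ryr1*, *Atp2a1*, *Casq1*, *Casq2* and *Hrc*. The sequences of 4 of them follow, because *Cacna1s*, *Atp2a1* and *Casq1* are the skeletal forms and *Casq1* and *Casq2* are the pair of store proteins that moved in opposite directions with age. Each runs 5′ to 3′ on the strand of its gene and ends before the transcript start of both RefSeq and GENCODE vM21. Capitals mark the E-box, the letters CANNTG read on both strands, to which myogenic basic helix-loop-helix factors are known to bind.
Cacna1s, chr1:136052561-136052749, plus strand: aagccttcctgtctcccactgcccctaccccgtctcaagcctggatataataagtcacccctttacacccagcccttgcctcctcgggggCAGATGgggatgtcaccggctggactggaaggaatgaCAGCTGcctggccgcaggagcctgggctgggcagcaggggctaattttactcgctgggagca
Atp2a1, chr7:126463109-126463323, minus strand: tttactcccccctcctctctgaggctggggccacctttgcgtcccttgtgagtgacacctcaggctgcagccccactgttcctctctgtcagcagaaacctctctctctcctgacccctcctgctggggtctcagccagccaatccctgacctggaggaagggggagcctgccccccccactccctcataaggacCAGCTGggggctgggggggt
Casq1, chr1:172219896-172220145, minus strand: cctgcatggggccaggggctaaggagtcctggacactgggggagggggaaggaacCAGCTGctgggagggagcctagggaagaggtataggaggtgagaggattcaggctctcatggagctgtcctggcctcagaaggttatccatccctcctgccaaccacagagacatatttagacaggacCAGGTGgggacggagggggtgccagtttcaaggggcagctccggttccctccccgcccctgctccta
Casq2, chr3:102086165-102086414, plus strand: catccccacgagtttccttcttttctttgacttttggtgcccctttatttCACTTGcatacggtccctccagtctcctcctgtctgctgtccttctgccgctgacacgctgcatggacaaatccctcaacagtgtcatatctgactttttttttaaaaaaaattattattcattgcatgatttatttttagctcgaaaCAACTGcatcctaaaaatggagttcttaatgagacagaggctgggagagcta

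Over the 250 bases before the RefSeq start, an E-box was found in 5 of the 6 promoters, and 66.2% of all 32851 promoter windows in the table hold one. The form CAGCTG, a subset of the E-box, was found in *Cacna1s*, *Atp2a1*, *Casq1* and *Hrc*, 4 of the 6, against 4271 of the 32851 windows. It began 123 bases before the start in *Cacna1s*, 55 in *Atp2a1*, 195 in *Casq1* and 22 in *Hrc*. *Casq2* lacked CAGCTG but carried E-boxes with other central bases, and it was the single one of the 6 with a match to the MEF2 consensus, which 2.92% of all windows hold. The letters TATAAA (12.4% of windows) and the CArG box (1.47% of windows) were in none of the 6. The genes had been chosen for their function and with earlier results of these data known, so these matches describe the windows and carry no test.

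Total counts per library ran from 29861447 to 45260372 in the gubernaculum and from 33000204 to 42629270 in the testis. The KO libraries were deposited in a second table together with the P23 WT testis, so table and genotype cannot be told apart in any comparison of INSL3-KO with WT or INSL3-KI gubernaculum. The targeted gene *Insl3* was (mouse transcript) at 71.1 to 89.4 CPM (counts scaled to a common library total) in P8 WT testis, 0.455 to 0.926 in P8 INSL3-KI testis and 16.5 to 21.9 in the P8 testis libraries labelled INSL3-KO. The RNA in the latter was low but not absent, unlike the P23 testis libraries labelled INSL3-KO at 0 to 0.119 CPM. In the P8 gubernaculum *Insl3* was at 0 in both mutants and at 0.663 to 2.43 CPM in WT. In the P23 INSL3-KI gubernaculum it was at 0.330, 0.793 and 0 CPM in replicates 1, 2 and 3, beside 0.245 to 0.787 CPM in P23 WT. The source of these reads was not tested. *Rxfp2*, the INSL3 receptor gene and the marker used for the gubernaculum, was at 34.7 to 43.6 CPM in P8 WT, 9.59 to 31.1 in INSL3-KO and 1.70 to 2.24 in INSL3-KI, so the labelled tissue had little of its marker in INSL3-KI. Changes were tested on the counts of all genes with edgeR's quasi-likelihood test after TMM scaling. Calls required both a Benjamini-Hochberg adjusted p below 0.01 and at least a 2-fold change, and unless another tool is named the adjusted p-values given here are from this test. Log2 fold changes are on the TMM scale, whereas CPM values use a library's total counts. With library size as the only scaling, the median over all genes of the log2 fold change of P8 INSL3-KI against WT moved from 0.02 to 0.34, and the calls from 1503 lower and 2238 higher genes to 1133 and 3144.

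In the P8 INSL3-KI gubernaculum, 9 of the 10 genes fell below WT and none was higher, and the exception was *Ryr3*. Of all genes tested in this comparison, 9.7% were called lower and 14.4% higher. In the P8 INSL3-KO gubernaculum, 10 of 10 were lower, where 15.2% of all genes were called lower and 15.5% higher. With all groups in 1 fit, which share 1 estimate of the spread, 5 of these 10 were called (*Ryr1*, *Cacna1s*, *Casq2*, *Hrc* and *Jph1*), and *Casq1* (adjusted p = 0.243), *Trdn* (0.138), *Ryr3* (0.0654), *Cacng1* (0.0334) and *Atp2a1* (0.0122) were not. INSL3-KI lay below INSL3-KO for 9 of the 10 (10.5% of all genes) and above it for *Ryr3* (11.9% of all genes). For the 10 genes the median log2 fold change came to -6.41 for INSL3-KI and -2.28 for INSL3-KO, against medians over all genes of 0.02 and 0.03. Both comparisons share the P8 WT libraries. The 10 genes were chosen with earlier results of these data known, so these counts describe them and carry no test of the set. At P23, 7 of the 10 genes were lower in INSL3-KI, when 2.35% of all genes were called lower and 0.212% higher, and the other 3, *Ryr3*, *Casq1* and *Casq2*, did not pass.

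**Figure D1:**
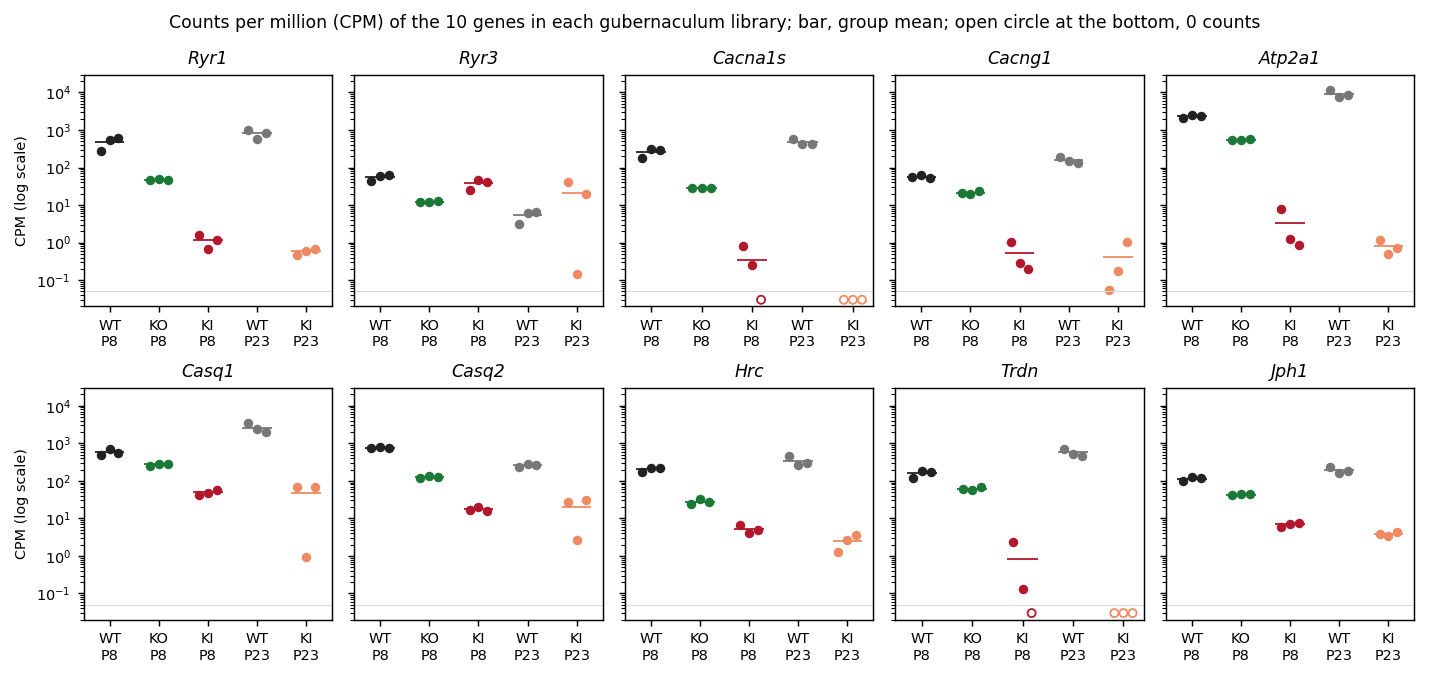
CPM on a log axis for the 10 genes in each of the 15 gubernaculum libraries (points), with the group mean as a bar and open circles at the bottom for libraries with 0 counts. In P8 INSL3-KI *Cacna1s* sat at or below 0.791 CPM, while *Ryr3* at 25.1 to 47.9 CPM overlapped the WT range of 43.0 to 65.0 CPM. On the TMM scale of the test, the *Ryr3* libraries of P8 INSL3-KI and WT did not overlap.

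Among the voltage sensor genes, *Cacna1s* (chromosome 1, 136052750 to 136119822, plus strand, GRCm38), the pore of the skeletal L-type channel, was close to lost in INSL3-KI. Its counts in P8 WT were 6564, 11644 and 10413, in INSL3-KO 1105, 1288 and 1257, and in INSL3-KI 27, 8 and 0. The 3 groups did not overlap, and INSL3-KO stood between the others. The log2 fold change was -9.81 ± 0.58 (SE, n = 3 per group) in INSL3-KI (adjusted p = 5.14e-06) and -3.37 ± 0.21 in INSL3-KO (adjusted p = 1.22e-05). At P23, WT counts were 19438, 15136 and 15335, and all 3 INSL3-KI libraries were at 0. With 0 counts taken as a floor of 3 per library, P23 INSL3-KI was at least 7141-fold lower (adjusted p = 0.00209).

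*Cacng1*, the gamma subunit of the same channel (chromosome 11, 107703218 to 107716522, minus strand), overlaps no other annotated gene. Its counts were 1945, 2339 and 1889 in P8 WT, 832, 887 and 1036 in INSL3-KO, and 36, 9 and 6 in INSL3-KI. Again no library of one genotype reached the range of another. It was 134-fold lower in INSL3-KI (log2 -7.06 ± 0.43, adjusted p = 5.49e-06) but 2.94-fold lower in INSL3-KO (log2 -1.56 ± 0.10, adjusted p = 1.64e-05), beside 10.3-fold for *Cacna1s* in the same libraries. In P23 INSL3-KI the counts were 2, 6 and 41 against 6590, 5351 and 4829 in WT (log2 -8.92 ± 1.05, adjusted p = 0.0073).

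The release channel genes parted. *Ryr1* (chromosome 7, 29003344 to 29125179, minus strand), the release channel of skeletal fibres, had counts of 10063, 20936 and 22349 in P8 WT, 1855, 2172 and 2127 in INSL3-KO, and 55, 21 and 36 in INSL3-KI. WT replicate 1 was at 282 CPM and the other WT libraries at 555 and 617 CPM, yet every mutant library lay far below all 3. The log2 fold change was -9.04 ± 0.45 in INSL3-KI (adjusted p = 2.08e-06) and -3.51 ± 0.30 in INSL3-KO (adjusted p = 5.00e-05). At P23 INSL3-KI had 17, 21 and 28 counts against 34968, 21216 and 30486 (log2 -10.75 ± 0.48, adjusted p = 0.00134).

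*Ryr3* (chromosome 2, 112631355 to 113217096, minus strand) encodes a ryanodine receptor found in immature skeletal muscle, in smooth muscle and in the brain. Counts were 1536, 2247 and 2353 in P8 WT, 858, 1489 and 1218 in INSL3-KI, and 487, 547 and 568 in INSL3-KO. It was the single member at which INSL3-KI stood above INSL3-KO in every library. INSL3-KI did not pass against WT (log2 -0.90 ± 0.25, 1.87-fold lower, adjusted p = 0.0171), whereas INSL3-KO was 5.04-fold lower than WT (log2 -2.33 ± 0.16, adjusted p = 2.22e-05) and INSL3-KI 2.63-fold higher than INSL3-KO (log2 1.39 ± 0.23, adjusted p = 0.00148). The 2 calls that involve INSL3-KO depend on the unit. The transcript length implied by the deposited counts and FPKM (fragments scaled by transcript length and depth) was 15575 to 15868 bases for *Ryr3* in P8 WT libraries and 2813 to 2895 in INSL3-KO libraries, and by limma on log2(FPKM + 1) the difference between INSL3-KO and WT was 0.25 (adjusted p = 0.136) and that between INSL3-KI and INSL3-KO was -0.68 (adjusted p = 0.0108). *Ryr3* also overlaps *Aven* on the opposite strand, and the sources used here do not state whether reads were counted by strand. At P23 *Ryr3* counts in INSL3-KI were 1528, 5 and 813, around the WT values of 105, 230 and 246.

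*Atp2a1* (chromosome 7, 126445858 to 126463108, minus strand), the fast-fibre SERCA pump, had the highest FPKM of the 10 genes in WT at both ages and in INSL3-KO. Counts were 75171, 92611 and 85379 in P8 WT, 20834, 24992 and 25727 in INSL3-KO, and 267, 40 and 25 in INSL3-KI. INSL3-KI replicate 1 held more than the other INSL3-KI libraries together, here as for *Cacna1s*, *Trdn* and *Cacng1*. The fall was 874-fold in INSL3-KI (log2 -9.77 ± 0.88, adjusted p = 4.76e-05) and 4.66-fold in INSL3-KO (log2 -2.22 ± 0.09, adjusted p = 2.06e-06). At P23 the WT counts of 399823, 269296 and 312179 faced 44, 18 and 29 in INSL3-KI (log2 -13.77 ± 0.95, adjusted p = 0.00173). *Atp2a1* overlaps *Rabep2* on the opposite strand, and the use of strand is not stated. Whether reads of *Rabep2* are among the low INSL3-KI counts was not tested.

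The store protein genes were lower in both mutants at P8, and the mean CPM left in INSL3-KI was 8.54% of WT for *Casq1*, 2.35% for *Casq2* and 2.59% for *Hrc*. *Casq1* (chromosome 1, 172209894 to 172219868, minus strand), the calsequestrin of fast skeletal fibres, had counts of 16929, 26686 and 20332 in P8 WT, 10040, 12932 and 12631 in INSL3-KO, and 1454, 1503 and 1733 in INSL3-KI. It showed the smallest fall of the 9 genes called in INSL3-KI, 14.8-fold (log2 -3.89 ± 0.20, adjusted p = 2.35e-06), and the smallest of the 10 in INSL3-KO, 2.37-fold (log2 -1.24 ± 0.15, adjusted p = 0.000279). *Casq2* (chromosome 3, 102086415 to 102146514, plus strand), the calsequestrin of heart, slow and immature skeletal muscle, had 27339, 29394 and 26821 counts in P8 WT, 4792, 6027 and 5735 in INSL3-KO, and 585, 634 and 481 in INSL3-KI. Its fold change was larger than that of *Casq1* in both mutants, a difference tested below for INSL3-KO only, at 54.0-fold in INSL3-KI (log2 -5.75 ± 0.15, adjusted p = 1.31e-07) and 6.66-fold in INSL3-KO (log2 -2.74 ± 0.07, adjusted p = 7.64e-07).

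*Hrc* (chromosome 7, 45335290 to 45338974, plus strand), a histidine-rich calcium-binding protein of the store lumen, overlaps no other annotated gene. Counts were 6047, 8278 and 7762 in P8 WT, 926, 1455 and 1245 in INSL3-KO, and 226, 123 and 150 in INSL3-KI. All libraries of each genotype lay apart from the others, with a log2 fold change of -5.61 ± 0.21 in INSL3-KI (adjusted p = 6.24e-07) and -3.01 ± 0.16 in INSL3-KO (adjusted p = 5.86e-06). At P23 it was 174-fold lower in INSL3-KI, with 46, 91 and 150 counts against 15808, 9620 and 11303 (log2 -7.44 ± 0.57, adjusted p = 0.00224).

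Of the junction genes, *Trdn* (chromosome 10, 33080554 to 33476709, plus strand), which encodes triadin, the anchor of calsequestrin to the release channel, was at 4303, 6951 and 6276 counts in P8 WT, 2409, 2647 and 2987 in INSL3-KO, and 78, 4 and 0 in INSL3-KI. It fell 240-fold in INSL3-KI (log2 -7.90 ± 0.83, adjusted p = 0.000111) and 2.87-fold in INSL3-KO (log2 -1.52 ± 0.17, adjusted p = 0.00019). At P23 *Trdn* was at 0 in all 3 INSL3-KI libraries and at 24794, 18924 and 17391 in WT, a difference of at least 8781-fold on the same floor (adjusted p = 0.00252). *Jph1* (chromosome 1, 16964560 to 17097889, minus strand), the junctophilin of skeletal muscle that spans the gap between the membranes, had 6.10% of the WT mean CPM left in P8 INSL3-KI. Its counts were 3470, 4679 and 4215 in P8 WT, 1640, 1968 and 1975 in INSL3-KO, and 204, 223 and 223 in INSL3-KI (log2 -4.38 ± 0.15 and adjusted p = 4.45e-07 for INSL3-KI, log2 -1.54 ± 0.11 and adjusted p = 2.03e-05 for INSL3-KO). At P23 the INSL3-KI counts of 141, 117 and 171 lay 64.3-fold below the WT counts of 8254, 6024 and 6724 (log2 -6.01 ± 0.30, adjusted p = 0.00134).

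**Figure D2:**
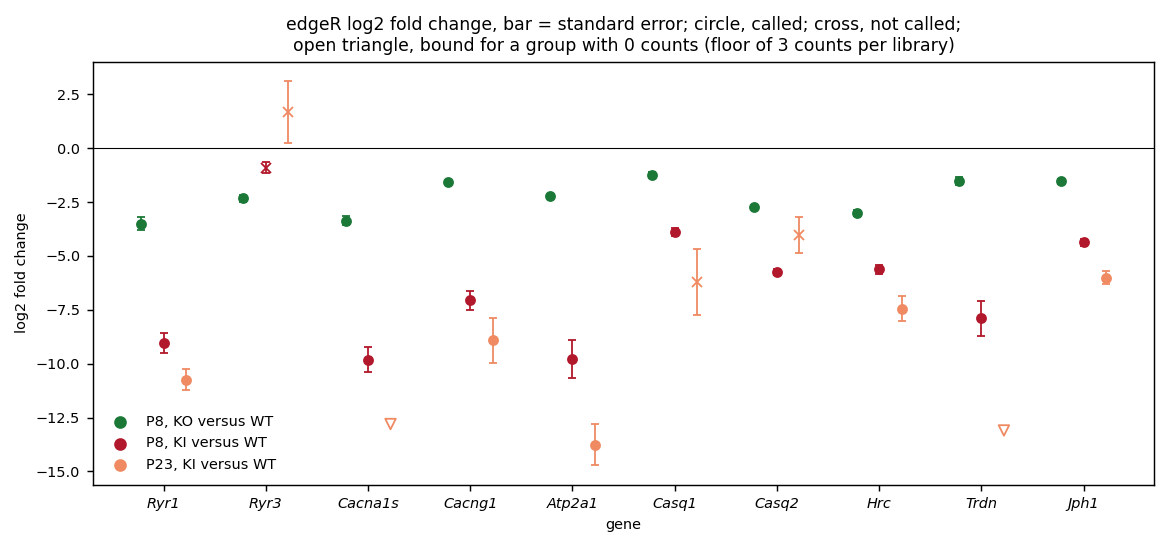
Log2 fold changes against WT of the same age with standard errors, for INSL3-KO at P8 (green), INSL3-KI at P8 (red) and INSL3-KI at P23 (orange); circles were called, crosses were not, and open triangles are bounds for groups with 0 counts. The INSL3-KO values lie between -3.51 and -1.24, whereas those of P8 INSL3-KI run from -9.81 for *Cacna1s* to -0.90 for *Ryr3*.

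The skeletal fibre markers moved with these falls. The summed CPM of 13 markers (*Acta1*, *Myh1*, *Myh2*, *Myh3*, *Myh4*, *Myh8*, *Myl1*, *Mylpf*, *Tnnc2*, *Tnni2*, *Tnnt3*, *Ckm* and *Actn3*) was 37271 to 39771 in P8 WT, 8965 to 9952 in INSL3-KO and 865 to 1473 in INSL3-KI. Most of the INSL3-KI sum was *Acta1*, with a median of 1041 CPM against 13555 in WT, while *Myh8* was at a median of 2.81 CPM against 8638 and *Mylpf* at 1.21 against 1798. The 6 myoblast and satellite cell markers summed to 717 to 923 CPM in P8 WT, 165 to 170 in INSL3-KO and 0.418 to 1.27 in INSL3-KI, and *Pax7* and *Myf6* were at 0 in all 3 INSL3-KI libraries. Smooth muscle markers went the other way, from 1062 to 1417 CPM in WT to 7067 to 7540 in INSL3-KO and 17929 to 22195 in INSL3-KI, with *Myh11* at a median of 26.5, 1035 and 5497 CPM. Markers of duct and epididymal epithelium were at 17.2 to 43.7 CPM in WT and 1482 to 2870 in the mutants, and those of adipocytes at 79.1 to 89.1 CPM in WT and 834 to 2071 in the mutants. The 5 neuron markers summed to 2.73 to 5.09 CPM in P8 WT, 25.3 to 28.1 in INSL3-KO and 78.7 to 150 in INSL3-KI. The part of this change in tissue make-up in the levels of the 10 genes was not tested.

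Within the INSL3-KO libraries, which still held fibre markers, each gene was set against the summed fibre markers of its own library. *Cacng1*, *Casq1*, *Trdn* and *Jph1* were higher relative to the markers than in WT, by 0.61, 0.95, 0.67 and 0.63 on the log2 scale. *Ryr1*, *Cacna1s*, *Hrc* and *Casq2* were lower, by differences of -1.26, -1.16, -0.84 and -0.57. The WT and INSL3-KO libraries did not overlap for these 8 genes. Over all 15835 genes with a mean of at least 10 counts, 89.1% were higher relative to the markers without overlap and 3.61% lower, so a higher value is what most genes showed once the summed markers were the divisor, and the 4 lower genes were among the few. The exact two-sided permutation test gave 0.1 for each, the smallest p that 3 against 3 allow (adjusted p = 0.125 over 10 genes). *Atp2a1* and *Ryr3* overlapped between the genotypes, with differences of -0.05 and -0.14 (exact permutation p = 0.5), and both differences turned positive in FPKM. The implied length of *Atp2a1* was 3246 to 3400 bases in P8 WT and 1980 to 2025 in INSL3-KO. In P8 INSL3-KI, at 25 to 267 counts, it was 2513 to 3584 bases. The direction of the other 8 was the same with the mean log2 CPM of the markers or FPKM in place of their summed CPM.

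**Figure D3:**
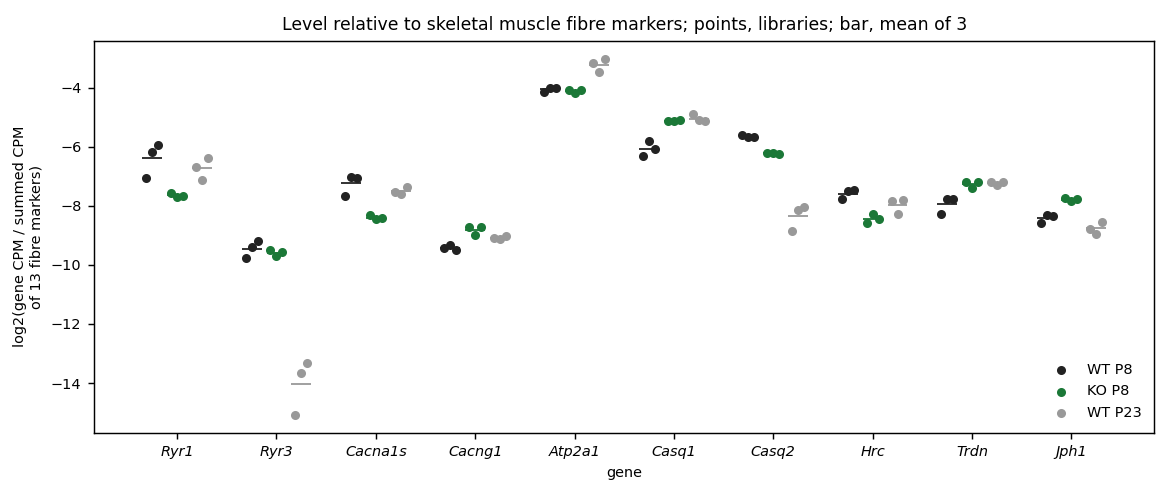
Log2 of the CPM of each gene over the summed CPM of 13 skeletal fibre markers, for each library (points) and as the mean of 3 (bars), in P8 WT, P8 INSL3-KO and P23 WT gubernaculum. *Ryr3* and *Casq2* drop at P23, by 4.57 and 2.69 log2 units below P8 WT, and *Casq1* rises by 1.02. The divisor itself rose, from 37271 to 39771 CPM in P8 WT to 68527 to 105350 CPM in P23 WT. The edgeR log2 fold changes of *Ryr3* and *Casq2* with age were smaller, at -3.31 and -1.46. The share of all genes that drop relative to the markers with age was not computed.

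Age moved the genes apart in the WT gubernaculum. From P8 to P23, *Atp2a1*, *Casq1*, *Trdn* and *Cacng1* rose (6.17% of all genes were called higher), *Ryr3* and *Casq2* fell (4.34% called lower), and the remaining 4 did not pass. *Casq1* rose 4.91-fold (log2 2.30 ± 0.33, adjusted p = 0.00302) to 120506, 86220 and 72372 counts, and *Atp2a1* 4.32-fold (log2 2.11 ± 0.30, adjusted p = 0.00297). *Trdn* rose 3.89-fold (log2 1.96 ± 0.28, adjusted p = 0.00297) and *Cacng1* 3.02-fold (log2 1.60 ± 0.22, adjusted p = 0.00251). These 4 belong to the skeletal triad and store, as do *Ryr1*, *Cacna1s*, *Hrc* and *Jph1*, which did not pass. By contrast, *Ryr3* fell 9.94-fold (log2 -3.31 ± 0.28, adjusted p = 0.000639), from 43.0 to 65.0 CPM at P8 to 3.06 to 6.68 CPM at P23, and *Casq2* 2.76-fold (log2 -1.46 ± 0.15, adjusted p = 0.00108), to 7822, 10486 and 9693 counts. *Ryr1* (log2 0.86 ± 0.36, adjusted p = 0.0969), *Cacna1s* (0.96 ± 0.27, adjusted p = 0.0292), *Hrc* (0.90 ± 0.28, adjusted p = 0.0394) and *Jph1* (0.92 ± 0.22, adjusted p = 0.0172) had positive log2 fold changes that did not pass. The 4 calls of a rise were lost when any 1 P8 WT library was left out, with 0 of the 10 genes then called higher, whereas the 2 falls held in each of these fits. With all groups in 1 fit both falls were lost too (*Ryr3* adjusted p = 0.0284, *Casq2* 0.0522), and 0 genes were called higher. WT replicate 3 at P23 also held 3850 CPM of smooth muscle markers and 1095 of duct and epididymal markers, against 741 to 1383 and 42.2 to 65.9 in the other P23 WT libraries, and WT replicate 1 had the highest fibre marker sum, 105350 CPM.

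Ratios of related genes within a library need no scaling between libraries. The *Casq1*/*Casq2* count ratio was 0.619, 0.908 and 0.758 in P8 WT and 15.4, 8.22 and 7.47 at P23, so *Casq2* counts exceeded *Casq1* counts in each P8 WT library and in no P23 WT library. The *Ryr1*/*Ryr3* ratio went from 6.55, 9.32 and 9.50 to 333, 92.2 and 124. *Atp2a1* over *Atp2a2*, the pump of slow and cardiac fibres and of most other cells, went from 3.12 to 3.93 at P8 to 9.81 to 15.3 at P23, and *Cacna1s* over *Cacna1c*, the cardiac and smooth muscle L-type channel, from 10.6 to 12.4 to 14.8 to 30.7. P8 and P23 did not overlap for any of the 4 ratios (exact permutation p = 0.1 and adjusted p = 0.1 for each, the smallest that 3 against 3 allow). The share of all gene pairs without overlap was not computed, so whether the lack of overlap is particular to these pairs is not known. Counts were not divided by transcript length, so a ratio above or below 1 is not a ratio of molecules.

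In INSL3-KO at P8 the *Casq1*/*Casq2* ratio was 2.10, 2.15 and 2.20, above every P8 WT library, while the other ratios were below WT. *Ryr1*/*Ryr3* was 3.81, 3.97 and 3.74, *Atp2a1*/*Atp2a2* 1.08, 1.12 and 1.14, and *Cacna1s*/*Cacna1c* 0.929, 0.887 and 0.873. The mean log2 differences from WT were 1.51, -1.12, -1.70 and -3.64 in this order, with no overlap and an exact permutation p of 0.1 (adjusted p = 0.1) for each. Here too the share of all gene pairs without overlap was not computed. The size depends on the unit where the implied lengths given above differ between WT and INSL3-KO: in FPKM the *Ryr1*/*Ryr3* difference was -3.59 and the *Atp2a1*/*Atp2a2* difference -1.09. The INSL3-KI values are given as a description. Their *Casq1*/*Casq2* ratio was 2.49, 2.37 and 3.60 at P8, near that of INSL3-KO, but *Ryr1*/*Ryr3* was 0.0641, 0.0141 and 0.0296.

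**Figure D4:**
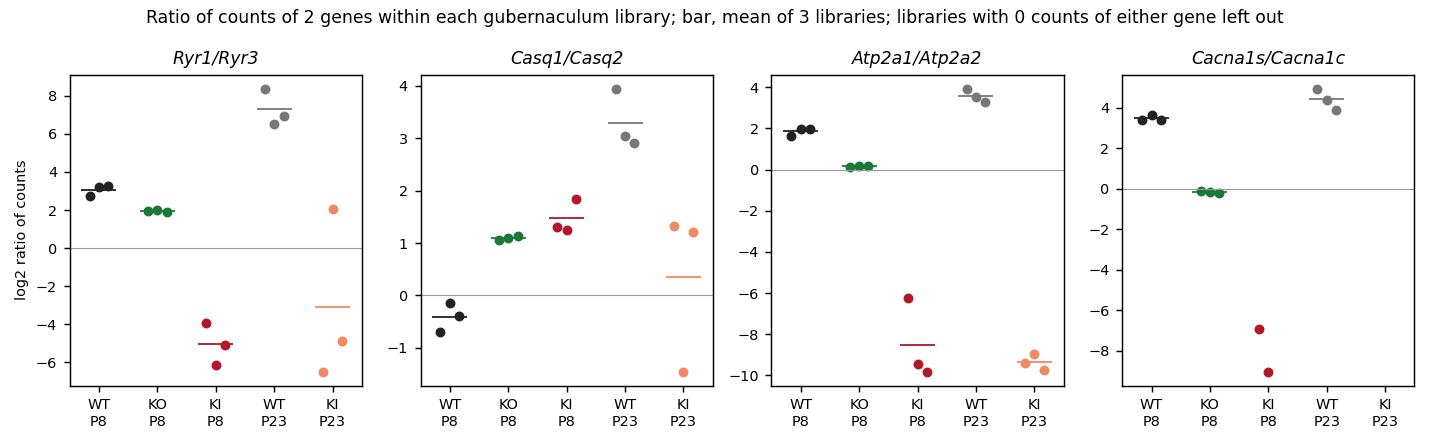
Log2 ratio of the counts of 2 related genes in each gubernaculum library (points; bars, mean of 3 libraries), with libraries at 0 counts of either gene left out. *Casq1*/*Casq2* is below 0 in all 3 P8 WT libraries and above 0 in all 3 P8 INSL3-KO, P8 INSL3-KI and P23 WT libraries, while *Ryr1*/*Ryr3* is below 0 in the 3 P8 INSL3-KI libraries.

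In the INSL3-KI gubernaculum *Casq1*, *Casq2* and *Ryr3* were the members with the highest mean FPKM at both ages, at 26.1 ± 4.1, 6.79 ± 0.84 and 2.41 ± 0.74 (SD, n = 3) at P8. At P23, replicate 2 stood apart. It held *Casq1* at 0.963 CPM against 68.1 and 69.2 in replicates 1 and 3, *Casq2* at 2.63 against 27.2 and 30.0, and *Ryr3* at 0.142 against 42.0 and 20.04. *Jph1*, at 3.31 to 4.22 CPM, and *Ryr1*, at 0.467 to 0.690 CPM, did not follow this pattern. The same library held 1800 CPM of smooth muscle markers against 14378 and 14251 in the others, 30.6 CPM of fibre markers against 977 and 728, 3.71 CPM of duct and epididymal markers against 3245 and 9558, and 13089 CPM of adipocyte markers against 6067 and 525. Its 5 neuron markers summed to 4.87 CPM against 163 and 131 in replicates 1 and 3, beside 0.583 to 38.4 in P23 WT. The summed 6 myoblast and satellite cell markers ran from 0.110 to 0.271 CPM across the P23 INSL3-KI libraries. The fibre sum of P8 INSL3-KI was mostly *Acta1*, and whether the sums at P23 reflect fibres was not tested. The part of the cells marked by these lists in the levels of *Ryr3*, *Casq1* and *Casq2* was not tested.

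**Figure D5:**
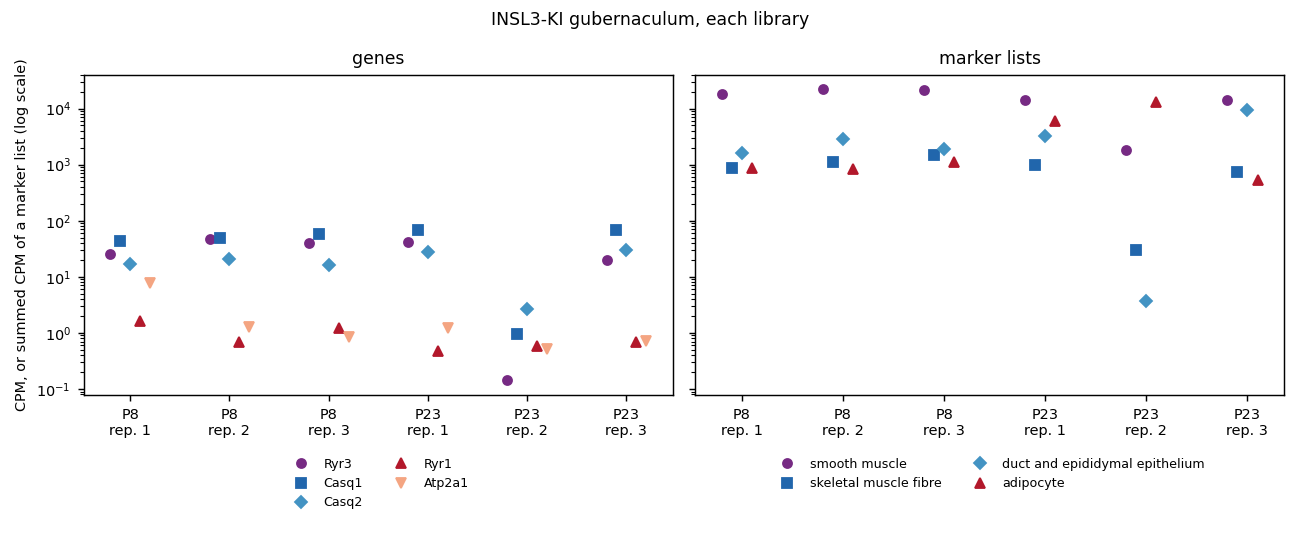
CPM of *Ryr3*, *Casq1*, *Casq2*, *Ryr1* and *Atp2a1* (left) and summed CPM of 4 marker lists (right), on a log axis, in each of the 6 INSL3-KI gubernaculum libraries. In P23 replicate 2 *Ryr3*, *Casq1* and *Casq2* drop together with the smooth muscle, fibre and duct markers, while *Ryr1* and *Atp2a1* are low in all 6 libraries.

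With all 3 libraries, *Casq1* (log2 -6.20 ± 1.53, adjusted p = 0.05003), *Casq2* (-4.03 ± 0.85, adjusted p = 0.0337) and *Ryr3* (1.69 ± 1.43, adjusted p = 0.434) did not pass in P23 INSL3-KI against WT, and no INSL3-KI library of *Casq1* or *Casq2* reached the WT range. Without replicate 2, *Casq1* (-5.68 ± 0.58, adjusted p = 0.00593) and *Casq2* (-3.58 ± 0.19, adjusted p = 0.00234) were called lower, which made 9 of 10 genes, and *Ryr3* was at 2.20 ± 0.47 (adjusted p = 0.0291), still not called. Without WT replicate 2 or WT replicate 3, by contrast, 2 and 3 genes were called in place of 7. With the replicate number added to the model as a block, 0 were called. Between P8 and P23 in INSL3-KI, 0 of the 8 genes tested were called, as were 0% of all genes (edgeR, with 3069 genes at an unadjusted p below 0.05), and DESeq2 and limma also called 0 of the members. Of all genes, however, DESeq2 called 357 lower and 230 higher in this comparison. *Cacna1s* and *Trdn* were too low to be tested there. The difference of the INSL3-KI effect between the ages was called for 0 of the 10 genes by edgeR, where 0.194% of all genes were called lower and 0.0874% higher. *Jph1* (adjusted p = 0.0136) and *Atp2a1* (adjusted p = 0.0462) were nearest to the threshold, and DESeq2 called 5 genes lower and none higher in this difference. Without INSL3-KI replicate 2 at P23, edgeR called this difference higher for *Ryr3* (log2 3.16 ± 0.54, adjusted p = 0.0089) and *Casq2* (log2 2.24 ± 0.19, adjusted p = 0.000857). The difference is also the change with age in INSL3-KI less that in WT, so the falls of both genes in WT are part of it. In the same fits without replicate 2, the change with age in INSL3-KI was -0.13 ± 0.44 for *Ryr3* and 0.80 ± 0.15 for *Casq2*, neither called (edgeR adjusted p = 0.871 and 0.0755).

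Against the testis, the P8 WT gubernaculum was higher for all 10 genes (14.1% of all genes were called higher). *Atp2a1* was 2652-fold higher (adjusted p = 3.36e-07), and *Trdn*, at 0 counts in the 3 P8 WT testis libraries, at least 2744-fold higher (adjusted p = 9.67e-06). The smallest differences were those of *Casq2*, 10.6-fold, and *Jph1*, 15.2-fold, which the testis also held, at 97.3 to 102 and 7.34 to 15.1 CPM. The P8 INSL3-KO gubernaculum was also higher for all 10 (22.9% of all genes) than the testis libraries labelled INSL3-KO, from 2.43-fold for *Casq2* to 1051-fold for *Trdn*.

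In INSL3-KI fewer of the 10 genes were called against the testis. At P8 the gubernaculum was higher than the testis for *Casq1* (32.4-fold, adjusted p = 0.000323), *Ryr3* (26.7-fold, adjusted p = 7.72e-05) and *Hrc* (2.61-fold, adjusted p = 0.00956), when 19.9% of all genes were called higher. It was lower for *Ryr1* (5.87-fold, adjusted p = 0.00117) and *Casq2* (2.95-fold, adjusted p = 0.000455), when 17.3% of all genes were called lower. Of the 8 genes tested, 3 were thus higher and 2 lower, and the share lower was near that of all genes. The call of *Hrc* was lost in 5 of the 6 fits that left out 1 library (adjusted p of 0.0130 to 0.0436, against 0.00436 without testis replicate 2), and also with no filter (0.0114), library size as the only scaling (0.0136) and the replicate block (0.0309). *Atp2a1*, at 0.837 to 7.82 CPM, overlapped the testis range of 1.79 to 2.14 CPM, and *Cacna1s* (adjusted p = 0.0116) and *Jph1* (adjusted p = 0.0146) did not pass, while *Cacng1* and *Trdn* were too low in both tissues to be tested. At P23, *Ryr1* (17.4-fold, adjusted p = 0.00104) and *Cacna1s* (at least 29.3-fold, adjusted p = 0.00264) were lower in the gubernaculum than in the testis of INSL3-KI, 2 of the 8 genes tested against 22.7% of all genes. Both calls were lost without INSL3-KI testis replicate 1 (0 called) and 1 of them without testis replicate 2 (1 called).

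The wider excitation-contraction list of 42 genes is given by class, and each count stands beside the shares over all genes tested, 9.7% lower and 14.4% higher for P8 INSL3-KI, and 15.2% and 15.5% for INSL3-KO. This list too was chosen with earlier results of these data known. All 6 voltage sensor partners and surface channels were lower in P8 INSL3-KI and in INSL3-KO, with median log2 fold changes of -6.26 and -2.87. *Cacng6*, another gamma subunit, went from 1482 to 1739 counts in P8 WT to 222 to 349 in INSL3-KO and 0 in all 3 INSL3-KI libraries, and was also at 0 in P23 INSL3-KI. *Scn4a*, the sodium channel that carries the muscle action potential, was at 1671 to 2983, 206 to 209 and 19 to 44 counts (log2 -6.50 ± 0.32 in INSL3-KI, adjusted p = 1.99e-06).

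Of 9 triad and T-tubule genes, 6 were lower in P8 INSL3-KI and 8 in INSL3-KO, beside 9.7% and 15.2% of all genes. *Cavin4* (log2 -9.30 ± 0.32) and *Sypl2* (-8.68 ± 0.39), both proteins of the T-tubule and triad membranes, changed most in INSL3-KI, and in INSL3-KO they were at -2.83 ± 0.10 and -1.90 ± 0.10. *Jph2*, the junctophilin that heart and smooth muscle also use, and *Speg*, a striated and smooth muscle kinase, ran against their class: they did not pass in P8 INSL3-KI (log2 -0.17 ± 0.15 and -0.40 ± 0.22) and stood above INSL3-KO (2.11 ± 0.13 and 1.82 ± 0.12, adjusted p = 2.52e-05 and 3.18e-05). *Jph2* counts were 8400 to 10255 in P8 WT, 8522 to 10882 in INSL3-KI and 2253 to 2871 in INSL3-KO, so that the junctophilin pair *Jph1* and *Jph2* differed in INSL3-KI.

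Of 7 pump regulators and store membrane proteins, 5 were lower in P8 INSL3-KI and 3 in INSL3-KO, beside the same 9.7% and 15.2%. *Sln*, which encodes sarcolipin, an inhibitor of the SERCA pump, was at 6763 to 8258 counts in P8 WT and 0 to 8 in INSL3-KI (log2 -11.50 ± 0.46), but 3311 to 4066 in INSL3-KO (log2 -1.36 ± 0.10, adjusted p = 2.21e-05, which turned to 0.16 on the log2(FPKM + 1) scale). *Srl*, which encodes the store protein sarcalumenin, was at 34282 to 39872, 222 to 257 and 5431 to 6328 counts in WT, INSL3-KI and INSL3-KO. Of 5 release channel partners and cytosolic buffers, none was called in INSL3-KI, and *Fkbp1a* and *S100a1* were higher in INSL3-KO (log2 1.07 and 1.05).

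Of the 15 genes listed as counterparts of other muscle and non-muscle cells, 6 were higher and 1 lower in P8 INSL3-KI, with 4 higher and 2 lower in INSL3-KO. The INSL3-KO counts were near the shares of all genes called in each direction (15.5% higher and 15.2% lower). *Ryr2*, the cardiac release channel, rose from 20 to 28 counts in WT to 142 to 343 in INSL3-KI (log2 3.18 ± 0.42, adjusted p = 0.000386), and *Cacnb2*, a channel subunit of heart and smooth muscle, from 81 to 172 to 1001 to 1256 (log2 3.11 ± 0.28, adjusted p = 4.76e-05). *Stim1*, the store calcium sensor, was the single gene of this list called lower in P8 INSL3-KI, at -1.51 ± 0.24. It was lower in INSL3-KO and P23 INSL3-KI as well (-2.33 ± 0.11 and -1.63 ± 0.21). *Jph4* was the other one lower in INSL3-KO (log2 -1.16 ± 0.16). Of the 14 counterparts tested in P23 INSL3-KI, 2 were called lower and 1 higher, beside 2.35% and 0.212% of all genes. The higher one was *Itpr2*, an inositol trisphosphate receptor (1.56 ± 0.19, adjusted p = 0.00822).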

How the data were processed

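RNA of male mouse gubernaculum and testis was extracted with TRIzol and sequenced from mRNA libraries with paired ends. The authors aligned the reads with HISAT2 to GRCm38 and deposited gene counts and FPKM in 2 tables, of which the second holds the INSL3-KO and P23 WT testis libraries. The counter, the annotation release and the use of strand are not given in the sources used here. The deposited count values are raw counts per gene, and the deposited FPKM values are those counts divided by the authors by transcript length and depth. The tables were joined on 21561 shared Ensembl identifiers, which held 94.2% to 97.9% of the counts of each library. Groups came from the labels, with 3 libraries each, described as biological replicates, and p-values measure the spread between these libraries. No 2 libraries were identical.

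edgeR 4.0.16 (R 4.3.3) was run on the libraries of the compared groups, with filterByExpr at its default minimum count of 10, TMM scaling and the quasi-likelihood test, and p-values were adjusted over all genes tested. Standard errors were the log2 fold change over the square root of F. On simulated counts of the P8 INSL3-KI and WT comparison (15500 genes, 200 changed by a log2 fold change of 2), edgeR called 100% of the changed genes and DESeq2 95.0%. These counts were drawn with the same spread for every gene. The P23 comparisons were not simulated. Alternatives were DESeq2 1.42.0, no filter, library size as the only scaling, all groups in 1 fit, a replicate block, limma 3.58.1 on log2(FPKM + 1) or log2(FPKM + 0.1), and leaving out each library. Ratios were tested with an exact two-sided permutation test (scipy 1.17.1). Counting limits cover counting error only. Named genes were the 10 members and, of the wider list, up to 2 genes a class with the strongest call in P8 INSL3-KI and the genes called against their class. The members and lists were chosen with earlier results of these data known. Promoters were those of RefSeq (GRCm38.p6), and gene coordinates those of GENCODE vM21.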

Additional observations from a re-analysis of the deposited data

Results flagged for a closer look

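For *Hrc* and *Jph1*, every P23 WT gubernaculum library lay above every P8 WT library, and every P23 INSL3-KI library below every P8 INSL3-KI library, a pattern that 3.20% of the 15800 genes with a mean of at least 10 counts share. None of the 4 changes with age passed the threshold of 0.01. In WT the log2 fold change was 0.90 for *Hrc* (edgeR adjusted p = 0.0394) and 0.92 for *Jph1* (edgeR adjusted p = 0.0172), and in INSL3-KI -0.88 (edgeR adjusted p = 0.329) and -0.67 (edgeR adjusted p = 0.206). The difference of the INSL3-KI effect between P23 and P8 was -1.85 ± 0.51 on the log2 scale for *Hrc* (edgeR adjusted p = 0.0546) and -1.66 ± 0.29 for *Jph1* (edgeR adjusted p = 0.0136), so neither passed.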

How the results depend on the processing

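Of 1411 values of the members under alternatives, 1288 kept their direction and side of the threshold, 67 lost and 30 gained the call, and 26 changed sign. Leaving out any 1 library left the 9 falls in P8 INSL3-KI and the 10 in INSL3-KO at 9 and 10. With all groups in 1 fit, 5 genes were called lower in INSL3-KO in place of 10, 0 in place of 1 higher in INSL3-KI than INSL3-KO, and 0 lower and 0 higher with age in WT. The single higher call in INSL3-KI against INSL3-KO, *Ryr3*, gave 0 calls with limma at either pseudocount, where its log2 value was -0.68 and -0.88, and against WT in INSL3-KO 0.25 and 0.31. The implied length of *Ryr3* differed between INSL3-KO and the other gubernaculum groups. *Sln* in INSL3-KO turned to 0.16 at both pseudocounts.

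The labels do not say whether the replicate numbers pair the libraries. For INSL3-KI against WT, correlations of libraries with the same number were -0.070, 0.046 and -0.027 at P8. They were -0.12, 0.34 and 0.46 at P23, so pairing at P23 was left undecided. With the replicate block, calls of the members fell to 0 at P23 in INSL3-KI (main 7), to 0 for the rises with age (main 4) and to 0 for the P23 testis comparison (main 2). Leaving out 1 library at a time gave 2 to 9 falls at P23 in INSL3-KI, 0 to 4 rises with age, 0 to 2 calls higher in the difference between ages, 2 to 4 lower in P8 INSL3-KI against its testis (4 without testis replicate 2), and 0 to 2 lower and 0 to 1 higher in P23 INSL3-KI against its testis. In the difference between ages, DESeq2 called 5 lower, all groups in 1 fit 1 and limma on log2(FPKM + 1) 1, against 0. DESeq2 called 4 and limma on log2(FPKM + 1) 1 lower in P8 INSL3-KI against testis. At P23 limma on log2(FPKM + 1) called 0 lower there, and DESeq2 and all groups in 1 fit 2 higher each. The cause of these changes was not tested.

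The sign changes were otherwise in values that were not called. In INSL3-KI with age, *Casq1* (main 0.02) was -0.10 by library size, -0.83 with the block, -1.08 and -1.49 by limma and -0.45 to 0.60 without 1 library; *Casq2* (main 0.29) was -0.14 with the block, -0.24 and -0.43 by limma and -0.063 to 0.80 without 1 library; *Cacng1* (main -0.21) was -0.60 to 0.84 without 1 library. Against the testis, *Atp2a1* at P8 (main 0.89) was -0.77 to 1.40 without 1 library, lowest without INSL3-KI gubernaculum replicate 1, *Casq2* at P23 -0.020 with the block and -0.033 by limma on log2(FPKM + 0.1), and *Jph1* at P23 0.024 with the block, 0.015 and 0.061 by limma and -0.23 to 0.15 without 1 library. Relative to the fibre markers in INSL3-KO, *Ryr3* was 1.92 in FPKM and *Atp2a1* 0.28 in FPKM and 0.087 with the mean log2 of the markers. Members at 0 to 8 counts are limited by depth.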
